A study of Mus musculus with 8 samples.

Results

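Zygotene spermatocytes of Bend2 knockout (KO) mice were compared with those of wild-type (WT) mice across the 14774 genes whose annotated transcripts reached a TPM of 1 or more in at least 2 of the 4 zygotene libraries, out of 33827 genes with a value in the series. TPM is a level per length of RNA that sums to the same total in every library. Each genotype had 2 zygotene libraries, and the series holds 2 leptotene libraries of each genotype besides, 8 in all. The mice were 2-month-old C57BL/6 animals, the WT and KO groups differed by the Bend2 genotype as labelled, and cells were sorted by flow cytometry before total RNA was sequenced. The labels do not say how the allele was made, and they do not tie libraries to separate animals. The p-values below therefore rest on library-to-library spread, which may be technical.

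Zygotene is the stage of meiotic prophase at which homologous chromosomes begin to pair along the synaptonemal complex, while programmed DNA breaks are being repaired. Male germ cells transcribe many genes of the later sperm long before the protein is needed, and they use germ cell copies of metabolic, cytoskeletal and chaperone genes in place of the copies that other tissues use. Bend2 encodes a protein with BEN domains, which bind DNA and are found in several transcriptional repressors.

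The 4 libraries held between 7.16 and 9.45 aligned gigabases, as coverage and FPKM imply. Across genes, which are not replicates, replicate libraries had r = 0.871 in WT and 0.857 in KO, and 18.5% and 24.5% of genes differed by over 2-fold within a group. No gene with a value carries the symbol Bend2. Gm15262 on chromosome X (161287456 to 161366252, GRCm38) is a candidate for this locus, and its level was 28.6 and 16.8 scaled TPM in WT and 29.7 and 41.4 in KO zygotene. The coverage of its exons 12 and 13 over that of exons 11 and 14, regions chosen with earlier results known, was 0.984 and 1.45 in WT and 0.153 and 0 in KO. Levels below are scaled TPM, in the order library 1, library 2 of a group. Fold changes, given with their standard error, were computed on log2(scaled TPM + 1), which understates the change of low genes. Unannotated single-exon transcripts took 9.90% and 23.7% of TPM in WT and 24% and 11.9% in KO, so this feature of a library crossed the genotypes.

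Markers of the labelled stage were present in both genotypes. The summed level of 20 zygotene genes was 1126 and 644 in WT and 717 and 958 in KO, so the groups overlapped, and none of the 16 that met the expression rule passed the test (median log2 fold change 0.08). Sycp3, a synaptonemal complex protein, stood at 95.9 and 62.6 in WT against 50.8 and 114 in KO. Among markers of other cells, some sums separated the genotypes and others did not. The summed level of 18 spermatogonial genes was 217 and 288 in WT against 519 and 697 in KO. That of 20 pachytene genes was 1731 and 2209 in WT against 750 and 421 in KO, and that of 20 round spermatid genes 5881 and 8230 against 1880 and 831. 12 macrophage genes summed to 172 and 616 in WT and 81 and 38 in KO, and 10 stromal genes to 905 and 1218 in WT and 627 and 172 in KO. 14 Sertoli cell genes summed to 412 and 647 in WT and 308 and 314 in KO, with none called. The groups overlapped for 8 Leydig cell genes, at 77.0 and 178 in WT against 221 and 93.0 in KO, and for 8 endothelial genes, at 79.6 and 103 in WT against 125 and 83.0 in KO. 10 lymphocyte genes summed to 30.3 and 41.6 in WT and 10.01 and 17.6 in KO. The 6 erythroid genes reached 2725 in WT library 2 and 2086 in KO library 1, against 256 and 7.91 in the other 2 libraries. What part these cells have in the results below was not tested, and in such bulk libraries fewer cells of a type and less RNA per cell cannot be told apart.

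Far more genes were lower than higher in KO. Of the 14774 genes, 251 (1.7%) passed the test (limma, Benjamini-Hochberg adjusted p under 0.05 over the 20151 genes tested), 47 higher (0.318%) and 204 lower (1.38%). All 251 moved by at least 2.09-fold, and in each the KO and WT zygotene libraries did not overlap. Non-overlap alone was common: 3583 genes (24.3%) had both KO libraries above both WT libraries, and 4065 (27.5%) had both below. Called falls were of well-expressed genes, with a median mean level of 42.4 in WT and 5.85 in KO, and for 18 of them both KO values were 0. For the called rises the median mean level went from 17.2 to 68.0. 21 of the 47 rises were histone cluster genes and 54 of the 204 falls were unnamed gene models. The calls draw on the spread of the leptotene libraries too: with the 4 zygotene libraries alone, or without WT zygotene library 1, WT zygotene library 2 or KO zygotene library 2, none of the 14774 genes passed (limma), while 2574, 2003, 1615 and 1584 had an unadjusted p under 0.05. Without KO zygotene library 1, 73 passed. Without WT leptotene library 1 or 2, 2 passed each time, and without KO leptotene library 1 or 2, 132 and 147.

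Genes of cholesterol synthesis held 4 of the 8 called rises in the function lists. Cells build cholesterol from acetyl-CoA through mevalonate, farnesyl diphosphate, squalene and lanosterol, and the transcription factor SREBP2 (Srebf2) drives the genes when sterols are low. Of 22 genes listed, 4 rose, against 0.318% of all genes, and none fell. The median log2 fold change was 0.69 against -0.02 over all 14774 genes, and in 14 of the 22 both KO libraries lay above both WT libraries, against 24.3% of all genes. Dhcr7, whose enzyme makes the last step to cholesterol (chromosome 7, 143823145 to 143848410), had 5.53 and 7.05 in WT and 21.6 and 43.3 in KO. Its log2 fold change was 2.13 ± 0.36 (limma adjusted p = 0.0395). Fdps, the farnesyl diphosphate synthase (chromosome 3, 89093588 to 89101959), had 12.5 and 16.8 in WT and 45.8 and 82.7 in KO (log2 fold change 2.01 ± 0.36, adjusted p = 0.0433 by limma). Insig1, which holds the SREBP precursor in the endoplasmic reticulum and is itself an SREBP target (chromosome 5, 28071363 to 28078662), went from 12.4 and 16.7 to 40.4 and 58.8. For these 3 genes each KO library was above each WT library by a wide margin, and KO library 2 was the highest of the 4 every time.

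**Figure D1:**
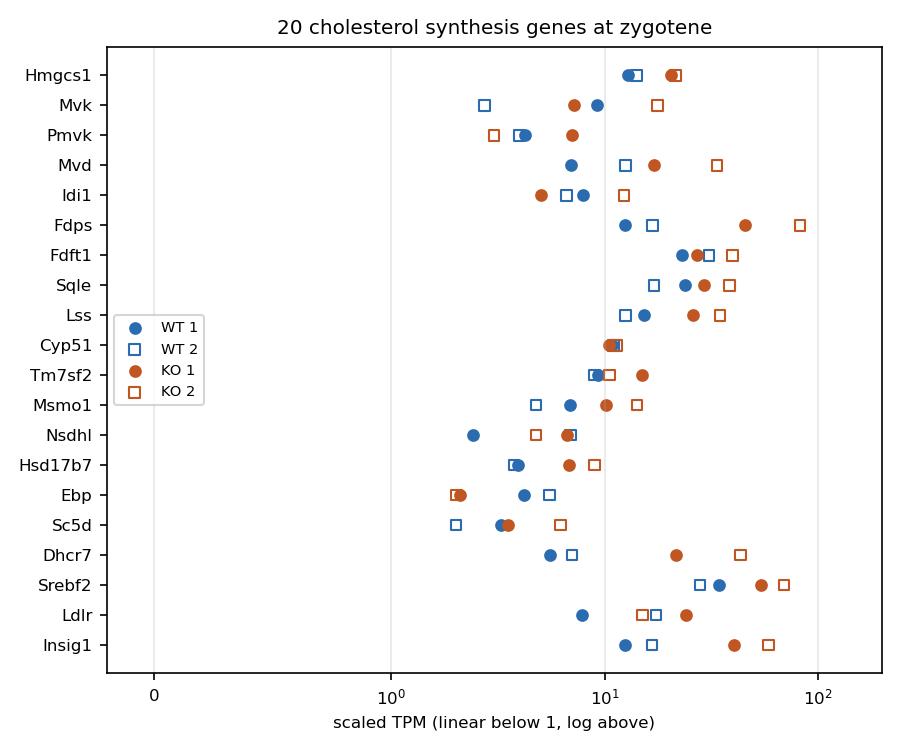
Scaled TPM (x axis, linear below 1 and logarithmic above) of 20 of the 22 cholesterol synthesis genes in each zygotene library, with WT in blue and KO in orange, circles for library 1 and squares for library 2. Dhcr7, Fdps and Insig1 have both KO libraries far to the right of WT, while Cyp51 and Pmvk overlap.

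Other steps moved less. Srebf2 itself went from 34.3 and 28.1 to 54.0 and 69.5 (log2 fold change 0.96 ± 0.23, limma adjusted p = 0.078). Cyp51, which demethylates lanosterol, lay at 10.8 and 11 in WT against 10.5 and 11.4 in KO (log2 fold change 0.01, 95% interval -0.78 to 0.80). Ebp, a sterol isomerase, was the one gene of the list with both KO libraries below WT, at 4.17 and 5.53 against 2.09 and 2.03, and did not pass (adjusted p = 0.359). Outside the list, Acat2, which makes acetoacetyl-CoA and was named after its values were seen, rose from 10.03 and 9.82 to 30.5 and 29.7, and did not pass by the level from covered bases described next (limma adjusted p = 0.0820). Dhcr7 and Insig1 also passed at leptotene, with log2 fold changes of 1.79 and 1.51. In KO, much of the TPM of Dhcr7 came from assembled transcripts that are not annotated: its annotated transcripts alone gave 0.309 and 6.87 in WT and 1.21 and 3.86 in KO as deposited, with a log2 fold change of 0.08. A level from covered bases adds coverage times length over all assembled transcripts given to a gene and divides by a fixed length per gene. It weights pieces by their length but still misses any that the assembly did not build or that were not given to the gene. It gave 2.09 ± 0.36 for Dhcr7, and with it 6 of the 22 genes passed, Srebf2 and Mvd besides those called on summed TPM. 1 of the 22 passed with annotated transcripts alone, none without KO zygotene library 2 or either WT zygotene library, and 1 without KO zygotene library 1.

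Promoters are shown for the called genes of this pathway that the RefSeq table (GRCm38.p6) holds, since several genes of the pathway rose. Capitals mark CCAAT, read on either strand, the box bound by NF-Y, which acts with SREBP at many sterol genes. The Dhcr7 window is chr7:143829964-143830263, plus strand, at one of 3 listed starts and inside the gene. The windows at its other listed starts, chr7:143822917-143823216 and chr7:143823149-143823448, hold no CCAAT and are not shown. The Insig1 window is chr5:28071162-28071461, plus strand. Each runs from 250 bases before a start to 50 after it.
Dhcr7: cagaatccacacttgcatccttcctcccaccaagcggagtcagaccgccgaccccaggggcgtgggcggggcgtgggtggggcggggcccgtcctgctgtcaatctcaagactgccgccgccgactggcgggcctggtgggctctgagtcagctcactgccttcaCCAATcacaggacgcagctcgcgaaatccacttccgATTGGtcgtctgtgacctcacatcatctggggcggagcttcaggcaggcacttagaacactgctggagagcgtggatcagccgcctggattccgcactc
Insig1: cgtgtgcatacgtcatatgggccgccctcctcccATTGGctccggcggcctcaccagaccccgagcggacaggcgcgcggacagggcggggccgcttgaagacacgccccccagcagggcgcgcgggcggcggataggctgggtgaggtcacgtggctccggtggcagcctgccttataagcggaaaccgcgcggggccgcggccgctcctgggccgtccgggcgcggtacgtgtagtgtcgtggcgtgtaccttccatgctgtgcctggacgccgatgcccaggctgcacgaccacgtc
CCAAT was found in a window of each of the 16 list genes with a promoter in the table. Cyp51 and Ebp, which did not rise, are among these 16, so CCAAT did not separate rising genes of the list from others. The share with CCAAT was 41.1% of the 27025 genes in the table and 43.1% of the 9331 genes of the comparison found there. Among all called genes found there it was near that background, in 7 of 16 called higher (43.8%) and 56 of 148 called lower (37.8%). The sterol element spelled TCACNCCAC was found for 1 of the 16, Hmgcs1, against 1.38% of those 9331. These matches describe letters and are no binding sites.

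The 12 largest rises outside the histones, by the naming rule, held 3 of these sterol genes. Trim71, an RNA-binding regulator of early progenitors, was at 2.95 and 7.65 in WT against 28.5 and 45.9 in KO (log2 fold change 2.67 ± 0.47, limma adjusted p = 0.0424). Sox3, an X-linked transcription factor of spermatogonia, rose from 9.57 and 9.54 to 30.0 and 40.2. Crabp1, a retinoic acid-binding protein and the one called gene of the spermatogonial list, rose from 11.8 and 15.2 to 49.7 and 68.6. Cdkn2a, a cell cycle inhibitor locus, rose from 11.6 and 10.1 to 38.8 and 45.4. Tcf15, a bHLH factor, stood at 4.65 and 5.87 in KO and had a listed value of 0 in each WT library, which is no proof of absence. The summed spermatogonial level, which includes Crabp1, was also higher in KO, as given above.

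The other 4 of the 12 were Polg2, Me2, Pusl1 and Rasd2. Polg2, the accessory subunit of the mitochondrial DNA polymerase, went from 1.91 and 1.23 to 12.2 and 11.6, with Milr1 on the opposite strand. The annotated transcripts of Polg2 alone gave 0 in both WT libraries and 1.75 and 8.48 in KO as deposited. Me2, the mitochondrial NAD-dependent malic enzyme, went from 6.18 and 9.36 to 24.9 and 32.0. Pusl1, a pseudouridine synthase-like gene, went from 7.92 and 5.29 to 39.2 and 27.3, though Ints11 overlaps it on the other strand and the assembly was run without a strand option. Rasd2, a small GTPase, went from 6.39 and 8.10 to 25.97 and 30.3. Smaller rises, named after their values were seen, were those of Cbx2, a Polycomb protein (9.07 and 7.66 to 24.4 and 31.3), and Gsr, the glutathione reductase (15.1 and 19.2 to 46.2 and 60.7). Hdac6, a deacetylase of tubulin, went from 46.2 and 36.4 to 92.4 and 105. Grsf1, a mitochondrial RNA-binding protein, passed on summed TPM, at 22.1 and 23.2 in WT against 70.1 and 69.9 in KO, but its direction depends on the transcripts counted. Its annotated transcripts alone gave 20.3 and 25.9 in WT and 0.207 and 0.102 in KO as deposited, and by covered bases it did not pass (log2 fold change 0.85, limma adjusted p = 0.0652).

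**Figure D2:**
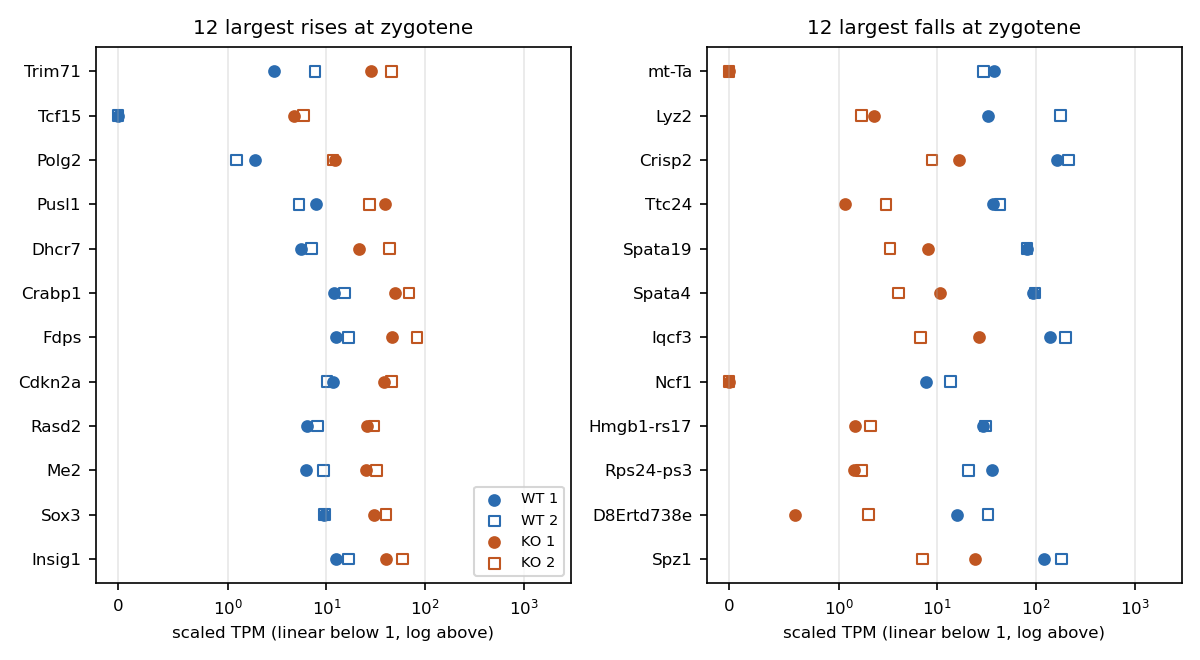
Scaled TPM (x axis, linear below 1 and logarithmic above) in each zygotene library for the 12 largest rises (left) and the 12 largest falls (right) chosen by the naming rule, WT in blue and KO in orange. In each of the 24 genes both KO libraries lie on one side of both WT libraries, and Lyz2 spreads from 32.3 to 176 between the WT libraries.

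The 12 largest falls, outside histones and the pachytene and spermatid lists, were of several kinds, with mt-Ta, a mitochondrial tRNA gene, and D8Ertd738e among them. Crisp2, a cysteine-rich secretory protein of the acrosome and flagellum, went from 162 and 211 in WT to 16.6 and 8.79 in KO (log2 fold change -3.83 ± 0.32, limma adjusted p = 0.0108). Spata19, a mitochondrial protein of sperm, went from 80.1 and 80.7 to 8.09 and 3.31, and Spata4 from 92.4 and 97.2 to 10.5 and 4.05. Spz1, a bHLH-zip protein of the testis, went from 121 and 181 to 24.1 and 7.07. Iqcf3, a gene with IQ motifs that bind calmodulin, went from 138 and 198 to 26.6 and 6.72, with Iqcf5 on the opposite strand. KO library 2 was the lowest of the 4 in each of these 5 genes. Ttc24, a gene with tetratricopeptide repeats, went from 36.3 and 43.2 to 1.16 and 3.02. Rps24-ps3 and Hmgb1-rs17 are copies of abundant genes, so reads could be split between near-identical sequences.

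2 of the 12 are genes of myeloid cells. Lyz2, the macrophage lysozyme, was at 32.3 and 176 in WT against 2.3 and 1.70 in KO. Ncf1, a subunit of the phagocyte oxidase, had 7.71 and 13.6 in WT, with a value of 0 for each KO library, and did not pass by covered bases (limma adjusted p = 0.0805). Aif1, another macrophage marker, fell from 72.2 and 89.6 to 23.9 and 10.5. Lyz2 and Aif1 belong to the macrophage list whose sum is given above, so that sum is no separate measure of them.

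Since many falling genes belong to later male germ cells, the promoters were also read for the palindrome TGACGTCA, the cAMP response element bound by CREM in spermatids. It was found for 5 of the 148 called lower genes with a promoter in the table (3.38%: Gm15756, Iqcf3, Mlf1, Spata7 and Znrf4), against 3.69% of the 9331 genes of the comparison, so the share was at the background. Iqcf3 is shown as the member of the 5 with the largest fall among named genes. Its window chr9:106561577-106561876, on the minus strand, has the element in capitals. The overlapping window at another listed start, chr9:106561576-106561875, holds the element too. The window chr9:106544637-106544936, at a further listed start, does not hold it, and neither of these is shown.
Iqcf3: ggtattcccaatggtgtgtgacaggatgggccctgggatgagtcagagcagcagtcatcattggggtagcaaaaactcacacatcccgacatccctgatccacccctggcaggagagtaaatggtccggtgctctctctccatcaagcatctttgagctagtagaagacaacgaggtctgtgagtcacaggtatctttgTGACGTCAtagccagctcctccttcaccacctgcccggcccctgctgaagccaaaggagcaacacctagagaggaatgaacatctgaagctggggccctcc

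Germ cell copies of widely used genes were among the falls. Retrogenes are intronless copies that took over from X-linked parents while the X chromosome is silenced in meiosis. Of 10 such autosomal retrogenes, 4 passed as lower, against 1.38% of all genes, and none as higher (median log2 fold change -0.83). In 6 of the 10 both KO libraries lay below both WT libraries, against 27.5% of all genes. In 3 both lay above, against 24.3% of all genes, and the highest log2 fold change of the list was 2.21. Of 8 X-linked parents none passed (median 0.01), and with 1.7% of all genes called no call among 8 is near the background. Gk2 and Gykl1, glycerol kinases, went from 44.5 and 49.98 to 12.1 and 7.47 and from 43.7 and 59.7 to 11.3 and 4.53. Their X-linked parent Gk lay under the expression rule, at 8.66 and 1.68 in WT against 3.71 and 6.67 in KO. Ubl4b, a ubiquitin-like protein, went from 32.3 and 53.4 to 10.9 and 6.94, beside 7.84 and 4.92 in WT and 4.66 and 6.29 in KO for its parent Ubl4a. Pgk2, the fourth, is the phosphoglycerate kinase of later germ cells, and its parent Pgk1 was at 13.5 and 14.8 in WT against 18.2 and 14.5 in KO (95% interval of the log2 fold change -0.45 to 0.83). Not every retrogene passed: Rpl10l, a ribosomal protein copy, had 49.4 and 59.9 in WT and 49.7 and 45.9 in KO. Rbmxl2, an RNA-binding copy of Rbmx, was higher in both KO libraries, at 51.0 and 52.0 against 20.9 and 24.6, and did not pass (limma adjusted p = 0.0695).

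Further pairs were chosen after their values were seen, so they are a description. Cct6b, the testis version of a chaperonin subunit, fell from 33.7 and 42.1 to 10.1 and 7.35 (log2 fold change -2.01 ± 0.29, adjusted p = 0.0271 by limma). Cct6a, the version of other tissues, was at 89.9 and 81.9 in WT against 134 and 181 in KO, with an interval of 0.16 to 1.54 for the log2 fold change and no call. Ppp3r2, the testis regulatory subunit of calcineurin, fell from 22.8 and 26.7 to 3.59 and 2.62, and Ppp3r1 had WT values of 11.6 and 16.4 and KO values of 18.4 and 16.3. Capza3, the actin-capping subunit of spermatids, fell from 17.4 and 30.5 to 3.13 and 1.44, while Capza2 held 19.6 and 19.1 against 18.0 and 20.1. Pabpc6, a poly(A)-binding protein gene, fell from 24.7 and 36.0 to 8.13 and 3.65, while Pabpc1 was at 345 and 374 against 259 and 283 without passing. Ldhc and Ldha, lactate dehydrogenase subunits, both had KO libraries below WT. Ldhc fell from 254 and 313 to 64.4 and 26, and Ldha, which did not pass, was at 83.5 and 114 in WT against 42.3 and 17.0 in KO (log2 fold change -1.82 ± 0.42, adjusted p = 0.0720). The difference between the copies of a pair was not tested.

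**Figure D3:**
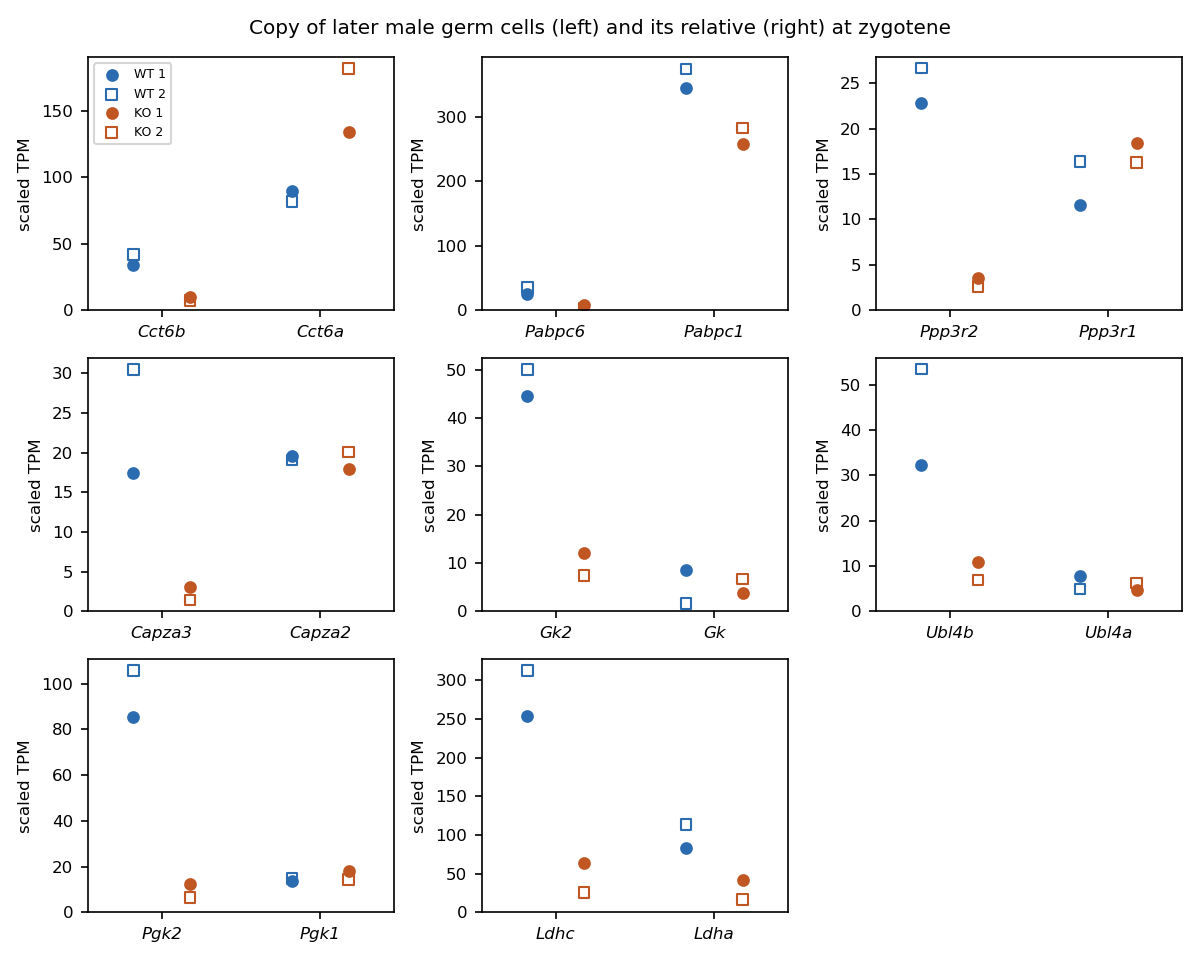
Scaled TPM (y axis, from 0) of 8 pairs in each zygotene library, with the copy of later male germ cells at the left of each panel and its relative at the right, WT in blue and KO in orange. The pairs were chosen after their values were seen, so the drop of the left copy in every panel follows from the choice. Cct6a lies higher in KO, and Pabpc1 and Ldha lie lower. The retrogenes Rpl10l and Rbmxl2, which did not pass, are not shown.

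Of 104 coiled-coil domain (Ccdc) genes 7 fell and none rose, against 1.38% of all genes lower, and the median was -0.28. Ccdc54 went from 46.2 and 58.5 to 6.32 and 3.12, and Ccdc169 from 17.7 and 10.3 to 1.47 and 0. Of 31 actin-related and capping genes 3 fell: Capza3, Actrt1, an actin-related protein of the sperm head, from 4.34 and 5.63 to 0 in both libraries, and Actg2, smooth muscle actin, from 52.3 and 65.4 to 16.7 and 8.67. Of 62 RING finger (Rnf) genes 1 fell, Rnf133, a ubiquitin ligase of spermatids, from 36.2 and 39.4 to 2.70 and 2.90. With 1.38% of all genes lower, 1 of 62 is near the background. Of 20 Kelch-like genes 1 fell, Klhl10, a substrate adaptor of spermatids, from 40.5 and 60.2 to 12.7 and 7.87. Ttll10, a tubulin glycylase, was the 1 of 17 tubulin-modifying genes that fell, from 57.2 and 61.2 to 20.6 and 11.5, with a limma adjusted p of 0.0521 by covered bases. Among 17 testis serine proteases Prss55 fell, and their median of -1.45 was the lowest of the function lists with 8 or more genes. The 17 t-complex genes had the next lowest median, -0.98, with none called: Tcp11, at 344 and 498 in WT against 206 and 93.7 in KO, had an adjusted p of 0.158.

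Some enzymes and other genes among the falls were named after their values were seen. Sord, sorbitol dehydrogenase, which makes fructose, went from 209 and 311 to 65.8 and 40.3. Gpd2, the mitochondrial glycerol phosphate dehydrogenase, went from 31.7 and 45.2 to 7.45 and 4.26. The annotated transcripts of Gpd2 alone gave 2.74 and 0.0223 in WT and 1.01 and 2.55 in KO as deposited, the opposite direction, while by covered bases it passed as lower (log2 fold change -2.68, limma adjusted p = 0.0368). Acsl1, which activates long-chain fatty acids, and Gpat4, which attaches them to glycerol phosphate, were lower with log2 fold changes of -1.50 and -1.44, and Gpat4 did not pass by covered bases (limma adjusted p = 0.0600). Gstt4, Gsto2 and Prdx6b, of the glutathione transferase and peroxiredoxin families, fell by 2.26, 1.85 and 2.18 on the log2 scale. Akap12, a kinase scaffold, went from 160 and 202 to 46.0 and 23.7, and Phf7, a reader of histone marks in male germ cells, from 170 and 234.5 to 67.1 and 42.3.

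Machinery of gene expression leaned the other way with few calls. Of 13 RNA polymerase II subunits, 12 had both KO libraries above both WT libraries, against 24.3% of all genes, and the median log2 fold change was 0.80. Polr2f was the 1 that passed, at 49.3 and 36.7 in WT against 127 and 128 in KO (log2 fold change 1.56 ± 0.25, limma adjusted p = 0.0368). The largest subunit, Polr2a, was at 100 and 80.4 in WT against 148 and 186 in KO without passing. Of 46 spliceosome proteins none passed, but 31 lay above WT in both KO libraries and 3 below, with a median of 0.51. Mitochondrial ribosomal proteins (37 of 79 above and 6 below, median 0.30) and nucleoporins (16 of 25 above and 2 below, median 0.25) had the same tilt with no call. Chaperonin and prefoldin subunits had a median of 0.48 and Cct6b as their one call. Eif6, which keeps ribosomal subunits apart, and Parp1, a sensor of DNA breaks, were the called members of the lists of 52 translation initiation factors and 22 excision and mismatch repair genes. Eif6 went from 33.5 and 29.7 to 67.1 and 76.0 and Parp1 from 44.6 and 38.4 to 86.5 and 105.

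**Figure D4:**
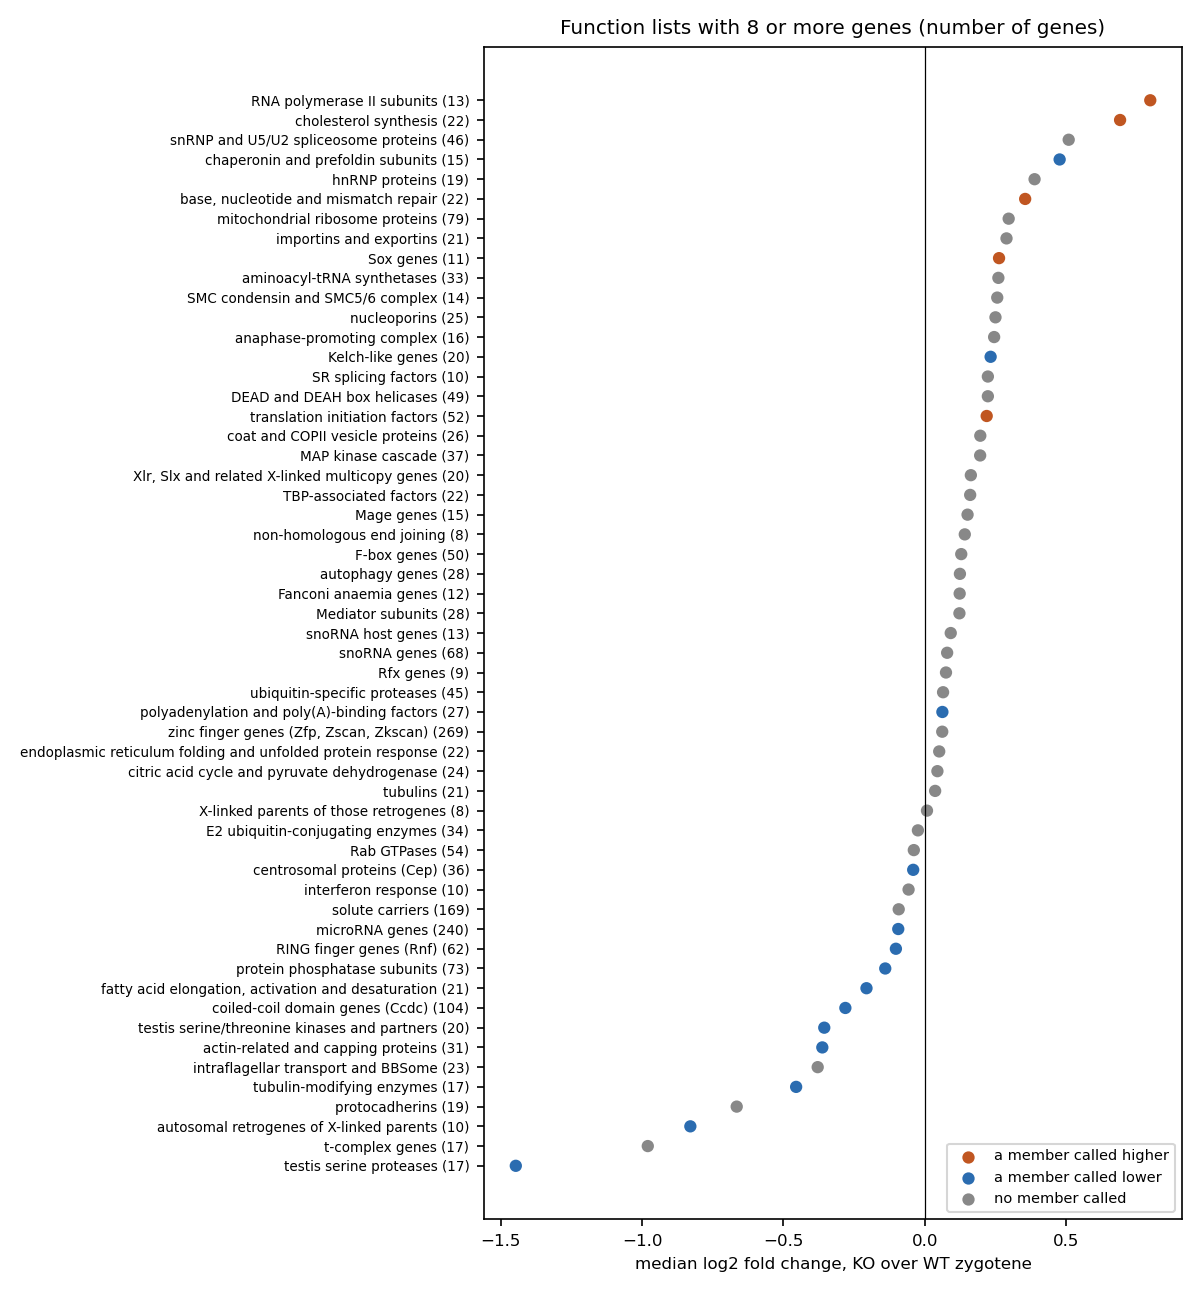
Median log2 fold change, KO over WT zygotene (x axis), of each function list with 8 or more genes of the comparison, the number of genes in brackets, coloured by whether a member was called higher (orange), lower (blue) or neither (grey). RNA polymerase II and cholesterol synthesis stand at the right, at 0.80 and 0.69, and testis serine proteases at the left, at -1.45.

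Of the 58 function lists, 39 had no called gene. They include 28 Mediator subunits (median 0.12), 22 TBP-associated factors (0.16), 269 zinc finger genes (0.06), 49 DEAD and DEAH box helicases (0.22), 45 ubiquitin-specific proteases (0.06), 54 Rab GTPases (-0.04), 169 solute carriers (-0.09), 24 citric acid cycle genes (0.04) and 21 tubulins (0.04). Over all function lists, 8 of 2182 genes rose and 26 fell, near the 0.318% higher and 1.38% lower of all genes. With 1.7% of all genes called, a short list without a call is near the background too. A missed threshold does not show that a gene held still, so intervals were read as well. For 2638 genes (17.9%) the 95% interval of the log2 fold change lay within -1 and 1, that is within 2-fold. 14 of the 28 Mediator subunits, 22 of 49 helicases and 14 of 25 nucleoporins were among them, but none of the 68 snoRNA genes. Among the most abundant of them, ribosomal and mitochondrial genes left out, were Eef1a1, Hist1h2ba, Eef2, Actb, Hspa5, Pabpc1 and Actg1. Eef1a1, the elongation factor, was at 961 and 1034 in WT against 1098 and 1217 in KO (95% interval -0.44 to 0.87), and Hspa5, the chaperone of the endoplasmic reticulum, at 386 and 283 against 378 and 398 (95% interval -0.52 to 0.97). Hist1h2ba, a testis H2B gene, was at 1069 and 686 in WT against 908 and 892 in KO, beside the rises of other histone genes of its cluster.

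By kind of RNA, of the long noncoding genes 18 of 535 (3.36%) fell and none rose, against 171 (1.49%) lower and 46 (0.401%) higher of 11481 protein-coding genes, and their median was -0.53 against -0.01. Frs3os, antisense to Frs3 and named after its values were seen, went from 16.3 and 12.1 to 1.38 and 2.39, and with no strand option in the assembly antisense genes are uncertain. On the X chromosome 19 of 539 genes (3.53%) fell and 2 rose, against 184 of 14161 (1.30%) and 45 on the autosomes, while the median X gene was level (0.01). The X-linked falls include Akap4, Actrt1, Zcchc13 and Hypm, and the 2 rises are Sox3 and Hdac6. Neither share was tested against the rest.

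Of 240 microRNA genes, 1 passed, a smaller share than the 1.7% of all genes called, so it describes 1 gene and not the class. Mir7241 (chromosome 9, 67727717 to 67727780, minus strand) was at 23.8 and 22.5 in WT against 4.80 and 3.64 in KO (log2 fold change -2.22 ± 0.42, limma adjusted p = 0.0497), close to the threshold. The libraries measure long RNA, so this is the level of RNA over the precursor and not of the mature product. The mature 5′ arm in RefSeq (GRCm38.p6) is given with its seed, bases 2 to 8, in capitals.
mmu-miR-7241-5p: aCUUGCAUgaguuaauacccacc

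Transcript shares gave a different set of genes from the gene levels. A share is the percentage of a gene's TPM held by 1 annotated transcript. Of 10940 transcripts in 5398 genes with a gene TPM of at least 10, 9 passed (0.0823%, limma adjusted p under 0.05), 8 lower and 1 higher in KO, and none of the 9 genes passed on its summed TPM. Pmfbp1, a protein of the sperm head-tail junction, had 100% of its TPM in the 21-exon transcript Pmfbp1-201 in both WT libraries and 0% in both KO libraries (adjusted p = 0.00947 by limma). The KO assemblies held 4 unannotated pieces instead, of at most 8 and 9 exons. Spag17, a protein of the central apparatus of the flagellum, had 85.6% and 99.9% in the 49-exon Spag17-204 in WT and 0% in KO, where pieces had at most 11 and 7 exons. Cfap157, Tcp10a, Map3k6, Adcy5, Samd4 and Osbpl9 had an annotated transcript with shares of 86.2%, 83.0%, 82.4%, 79.6%, 78.6% and 66.1% on average in WT and 0% in KO. For Map3k6 and Adcy5 that share was also 0% in both WT leptotene libraries. Gtse1, a regulator of p53 and microtubules in cycling cells, was the 1 higher: Gtse1-201 held 59.8% and 72.7% in KO and 0% in WT.

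Coverage moved with these shares. In ppm of the library, covered bases were 89.0 and 118 for Pmfbp1 in WT and 14.8 and 4.66 in KO, 74.7 and 105 for Spag17 against 15.5 and 5.33, and 30.3 and 46.5 for Tcp10a against 5.67 and 2.68. For Gtse1 they were 28.9 and 24.1 in WT and 50.7 and 69.4 in KO. The groups did not overlap in any of the 9 genes, which were picked by shares from the same libraries, so this is no separate support. On scaled TPM, non-overlap was common over all genes, with 24.3% above WT and 27.5% below. With gene levels taken from covered bases, Pmfbp1, Spag17 and Tcp10a fell (log2 fold changes -3.20 ± 0.60, -2.65 ± 0.51 and -2.75 ± 0.43, limma adjusted p = 0.0402, 0.0416 and 0.0315), although the summed TPM of Spag17 was level at 16.8 and 18.7 in WT against 27.1 and 14.2 in KO. Whether the KO cells make different isoforms was not tested apart from this coverage. By covered bases 559 of the 14774 genes passed (3.78%), among them 233 of the 251. In 4127 of 6240 genes (66.1%) the leading annotated transcript was the same in all 4 libraries, and in 177 it was one transcript in both WT and another in both KO libraries. The leading transcript differed between the 2 WT libraries in 1217 genes and between the 2 KO libraries in 1336. All 9 calls were lost in the fit with any 1 library left out, including each leptotene library.

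**Figure D5:**
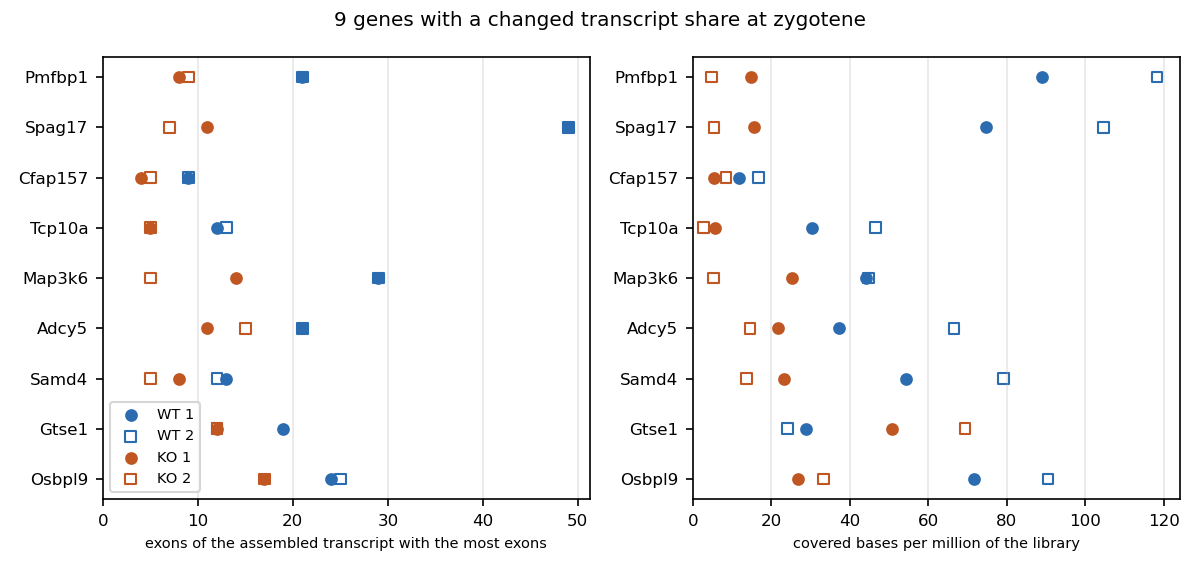
For the 9 genes with a changed transcript share, the number of exons of the assembled transcript with the most exons (left, x axis) and the covered bases in ppm of the library (right, x axis) in each zygotene library, WT in blue and KO in orange. In 8 genes KO holds shorter pieces and less coverage, and in Gtse1 the coverage is higher in KO.

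Most genes lower at zygotene were also lower at leptotene, but the libraries of the stages may not be independent. Within a genotype, same-numbered leptotene and zygotene libraries deviated together (r = 0.221 in WT and 0.115 in KO). Hba-a1, a haemoglobin gene, was at 41.9 and 874 in WT leptotene and 108 and 945 in WT zygotene, and at 281 and 2.69 in KO leptotene and 646 and 2.02 in KO zygotene. Whether such libraries share an animal is not given. The shared calls are therefore a description, and the spread estimated over 8 libraries may be too small. Of the 204 genes lower at zygotene 169 (82.8%) also passed as lower at leptotene, which is 52.5% of the 322 lower there (2.18% of genes). Of the 47 higher at zygotene 16 (34.0%) passed as higher at leptotene, or 48.5% of the 33 higher there (0.223%), and all 47 had a positive estimate. The test of the difference between the stages, the interaction of genotype and stage, passed for 5 of 20151 genes (0.0248%), of which mt-Ta is the 1 that met the expression rule.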

How the data were processed

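RNA of sorted spermatocytes was sequenced in 8 libraries. Per the submitters' processing notes, HISAT2, DESeq2 and mm10 were used, with no settings given. Per the file headers, the authors assembled each library with StringTie 2.1.2 and no strand option. The deposited values are coverage, FPKM and TPM of each assembled transcript. Read counts were not used here.

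TPM was summed per gene, adding unannotated transcripts whose exonic length lies to at least 50% in a GENCODE M21 gene of the same strand. Library factors (median of ratios) scaled the values. The 20151 genes that reached TPM 1 in 2 zygotene libraries were tested on log2(scaled TPM + 1) in 1 limma 3.58.1 model (R 4.3.3) of the 4 group means over 8 libraries, with an intensity trend. Transcript shares were tested alike. Alternatives covered the unit, pseudocount, filter, scaling, trend, replicate block, library kind and each library left out; covered bases and a crossed block were added after seeing the data. In simulated data on 20151 genes, 0%, 34%, 62% and 68% of 2-, 4-, 8- and 16-fold changes at zygotene were recovered, with 5 false calls. The simulated noise was independent between libraries and the lowest genes were given no change. These rates may therefore not hold for the real libraries. Tables and plots used Python 3.11.15, pandas 2.3.3 and matplotlib 3.10.9.

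Named are the 12 largest rises and falls among called, non-overlapping, named genes, without histones, pachytene and spermatid lists and 12 genes set by name, up to 2 called genes each way per list or else its most abundant gene, called transcripts and interactions, and the 8 most abundant steady genes. Members, lists and most tests were chosen with earlier results of these data known. The series text names 3 replications, where 2 libraries a group are labelled. Some items are not reported here.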

Additional observations from a re-analysis of the deposited data

Results flagged for a closer look

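In 5 genes the KO effect differed between zygotene and leptotene by the interaction test (limma, adjusted over 20151 genes), given as the zygotene minus the leptotene log2 fold change. Most of them switch between a level and a listed 0, and a listed 0 can be a transcript the assembly did not build. mt-Ta, the mitochondrial alanine tRNA, was at 37.2 and 29.1 in WT and 0 in both KO libraries at zygotene, and at 0 in WT and 31.6 and 35.9 in KO at leptotene (difference -10.20 ± 0.59, adjusted p = 0.00101). Of 19 mitochondrial tRNA genes of the comparison 7 were listed at 0 in at least 1 zygotene library and mt-Ta was the 1 called. The other 4 genes did not meet the expression rule on annotated transcripts. Slc25a47, a mitochondrial carrier, was at 22 and 9.92 in WT zygotene, 0 in KO zygotene and WT leptotene, and 17.2 and 8.73 in KO leptotene (difference -7.72 ± 0.81). Stox1, a winged-helix gene, was at 53.5 and 35.5 in WT zygotene, 2.03 and 6.16 in KO zygotene, 0 in WT leptotene and 12.1 and 10.5 in KO leptotene (difference -6.88 ± 0.72). Hist1h2bq was at 56.2 and 51.3 in WT zygotene and 0 in KO, against 127 and 121 in WT and 278 and 245 in KO leptotene (difference -6.84 ± 0.30), and near-identical copies can take each other's reads. Cfb, complement factor B, had 20.1 and 11.6 in WT zygotene, 33.3 and 21.2 in KO zygotene, against 60.7 and 37.4 in WT and 0 in KO leptotene (difference 6.36 ± 0.59).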

How the results depend on the processing

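Genes called at zygotene (251) came to 425 with TPM as deposited, 386 with a TPM of at least 5, 383 with annotated transcripts alone, 150 with no intensity trend, 104 with a pseudocount of 0.1 and, by limma, 0 with no filter (2814 at an unadjusted p under 0.05) or with zygotene libraries alone (2574). They came to 860 with the kind of library as a covariate (its percentage in single-exon unannotated transcripts) and, chosen after seeing the data, 559 by covered bases. Genes called in the function lists (34) came to 53, 54, 19, 12, 0, 0, 119 and 88 under those settings other than annotated transcripts alone, and to 20 with a TPM of at least 1 in 2 of 8 libraries. Interaction calls (5) came to 3 with that last filter and to 2 with the covariate, no filter, a pseudocount of 5, annotated transcripts alone or covered bases. Transcript share calls (9) came to 37 and 3 with a gene TPM of at least 5 and 20, 14 on the plain share and 30 among annotated transcripts. Leaving out 1 library gave 0 to 147 genes, 0 to 16 in the lists, 1 to 3 interactions and 0 to 0 shares. The replicate number did not pair the zygotene libraries of the genotypes (correlation of deviations -0.12), and as a replicate block it gave 39 genes, 4 in the lists, 3 interactions and 0 shares. The crossed pairing, chosen after seeing the data, gave 846 genes, 117 in the lists and 2 interactions. Of the 251 calls, 239, 239, 120, 110 and 100 were kept with TPM as deposited, a TPM of at least 5, annotated transcripts alone, no trend and a pseudocount of 0.1. The median of all genes moved from -0.04 to -0.15 with TPM as deposited and to 0.07 with quantile normalization, where 99 rose and 273 fell. Of 127 called genes examined singly, 2 changed direction, both with annotated transcripts alone: Grsf1 (log2 fold change -4.24) and Gpd2 (0.51). The read number is unknown, so precision at low levels could not be given.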
